A study of Mus musculus with 12 samples.

Results

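The Schlafen genes are a mouse gene family, and 7 of its members were followed here across all treatments: Slfn1, Slfn2, Slfn3, Slfn4, Slfn5, Slfn8 and Slfn9. They were picked by symbol, as an interferon-induced family with a known link to platinum drugs, and make up 7 of the 55216 genes in the count table. RNA was sequenced from Myc-CaP cells, a prostate cancer line from a male FVB/NJ mouse that carries a Myc transgene, after 48 h in culture. All groups, controls included, are this single line in the same medium. Control cells (Ctrl) received nothing. Oxali cells received 2 µM oxaliplatin, a platinum compound that crosslinks DNA. IFN200 and IFN2000 cells received 200 pg or 2000 pg of interferon gamma (IFNγ; the labels give no volume), and Combo200 and Combo2000 cells received 2 µM oxaliplatin together with 200 pg or 2000 pg of IFNγ. Each of these groups holds 2 libraries, 12 in all. The labels do not say whether the 2 libraries of a group came from separate cultures, so the p-values measure the spread between these libraries, which may be technical.

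Schlafen proteins share an amino-terminal core and are sorted by length into short (Slfn1, Slfn2), intermediate (Slfn3, Slfn4) and long forms (Slfn5, Slfn8, Slfn9), the long ones with an added helicase-like part. Many are induced by interferons, and several are known from lymphocytes and macrophages, where they hold back growth or differentiation. The human long member SLFN11 cuts transfer RNAs, binds stalled replication forks and makes tumour cells more sensitive to platinum drugs and other agents that damage DNA.

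All 7 members lie in 1 cluster on chromosome 11 of the GRCm38 build, which spans 263.8 kb (chr11:82951349-83215154) with no other protein-coding gene inside it. In order they are Slfn5 (chr11:82951349-82964840, plus strand), Slfn9 (chr11:82978390-82991830, minus), Slfn8 (chr11:83002158-83020810, minus), Slfn2 (chr11:83065112-83070678, plus), Slfn1 (chr11:83116849-83122670, plus), Slfn4 (chr11:83175186-83190216, plus) and Slfn3 (chr11:83191330-83215154, plus). The coding sequences follow the sorting by length: they encode 337 residues in Slfn1 and 378 in Slfn2, 602 in Slfn4 and 640 in Slfn3, and 884 in Slfn5 and 910 in both Slfn8 and Slfn9. Slfn8 and Slfn9 are near copies, with 92.7% of 2730 aligned coding bases identical, and so are Slfn3 and Slfn4, with 92.7% of 1785. Of the 50-base words of the Slfn9 transcripts 11.9% also occur in another gene, led by the pseudogene Slfn10-ps (8.1%). The share was 16% for Slfn3, led by Slfn4 (7.39%), 14.6% for Slfn8, led by Slfn10-ps (10.1%), and 4.27% for Slfn2. At 100 bases the shares were 3.71% for Slfn9, 2.92% for Slfn3, 3.38% for Slfn8 and 0.128% for Slfn2. Most of the Slfn3 share at 100 bases was with the gene Gm11427 (2.75%). The read length is not given in the sources used here, so reads of these members may have been split or dropped in counting to an unknown extent. No exon of another annotated gene overlaps the exons of Slfn9, Slfn3 or Slfn2.

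The promoter windows of the 3 members with enough reads to test, and of Slfn8, are shown because interferon acts through short motifs near a start site. Each window runs from 250 bases before to 50 bases after a start site listed by RefSeq on GRCm38.p6, 5′ to 3′ along the gene's own strand. Capitals mark matches to the core of the element bound by interferon regulatory factors (GAAANNGAA, both strands) or to the NF-kB core (GGNNTTTCC, both strands). They lie at chr11:82991781-82992080 (Slfn9), chr11:83020761-83021060 (Slfn8, the first of 2 listed starts), chr11:83064862-83065161 (Slfn2) and chr11:83191080-83191379 (Slfn3).
Slfn9: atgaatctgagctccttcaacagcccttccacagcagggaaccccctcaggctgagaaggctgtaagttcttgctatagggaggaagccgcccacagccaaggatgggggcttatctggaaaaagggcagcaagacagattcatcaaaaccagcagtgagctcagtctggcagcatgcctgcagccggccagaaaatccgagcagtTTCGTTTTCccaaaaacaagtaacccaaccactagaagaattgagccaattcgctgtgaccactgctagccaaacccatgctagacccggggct
Slfn8: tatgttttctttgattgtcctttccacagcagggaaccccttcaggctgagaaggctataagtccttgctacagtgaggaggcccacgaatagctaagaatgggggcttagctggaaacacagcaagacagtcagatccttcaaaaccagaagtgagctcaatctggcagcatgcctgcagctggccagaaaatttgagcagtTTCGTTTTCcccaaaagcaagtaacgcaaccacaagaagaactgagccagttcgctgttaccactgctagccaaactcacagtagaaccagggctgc
Slfn2: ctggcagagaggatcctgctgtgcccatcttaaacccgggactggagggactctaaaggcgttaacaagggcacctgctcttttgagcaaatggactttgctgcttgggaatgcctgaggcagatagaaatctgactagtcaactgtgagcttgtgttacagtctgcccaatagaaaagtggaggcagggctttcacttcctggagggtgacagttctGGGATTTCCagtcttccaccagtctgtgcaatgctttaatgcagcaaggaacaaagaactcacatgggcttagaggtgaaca
Slfn3: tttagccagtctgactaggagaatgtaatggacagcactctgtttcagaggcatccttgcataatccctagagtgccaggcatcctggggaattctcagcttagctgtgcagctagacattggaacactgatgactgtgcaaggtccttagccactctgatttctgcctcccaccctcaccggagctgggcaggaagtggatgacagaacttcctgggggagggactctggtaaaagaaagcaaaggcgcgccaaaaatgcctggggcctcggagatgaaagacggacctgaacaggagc

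The windows of Slfn9 and Slfn8 could be aligned over 292 bases, of which 84.9% were identical. Both hold the same 9 letters of the regulatory factor core, read on the strand opposite to the gene's own. They lie at -44 to -36 in Slfn9 and at -47 to -39 in Slfn8. The Slfn2 window holds an NF-kB core at -32 to -24 and no regulatory factor core. Neither core occurs in the windows of Slfn1, Slfn3 and Slfn4. Slfn5 has 2 regulatory factor cores and 1 NF-kB core, and no capital letters of these 2 motifs overlap in any of the windows. Of 32851 mouse promoter windows of this length, 8.56% hold the regulatory factor core and 5.82% the NF-kB core. A match to so few letters is a description of the sequence only.

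Sequencing depth was 18749975 to 25931516 counts per library. Levels are given below as CPM, counts per 1000000 counts, after scaling for library composition, and 3 counts, the limit that a count of 0 allows, stood for 0.111 to 0.167 CPM, which covers counting error only. Summed markers of prostate luminal epithelium were at 2793 to 3687 CPM in all libraries, as the label of the line says. For the single treatments, the treatment written in the sample titles and the one in the agent field differ in 6 libraries, and groups here follow the titles. Cdkn1a, a p53 target induced by DNA damage, was at 48.1 to 53.6 CPM in the 6 libraries titled with oxaliplatin and at 24.03 to 30.3 CPM in the other 6. Gbp2, an IFNγ-induced GTPase, was at 30.6 and 30.8 CPM in the libraries titled IFN2000 and at 2.86 and 3.36 CPM in those titled Oxali. Replicate 2 of IFN2000 stood apart, since its 12 T cell markers summed to 21.9 CPM against 0.353 to 3.63 CPM elsewhere. That library had 175 counts of Gzmb, 117 of Ifng and 64 of Ptprc. In the other libraries Gzmb was at 0 apart from 7 counts in Combo200 replicate 3, and Ifng was at most at 9. Replicate 2 of IFN2000 had 10 of the 12 markers above 3 counts, with Cd8a at 0, and the other libraries had 1 to 4. Without that library the T cell sum was 2.19 to 3.63 CPM in the 6 libraries with oxaliplatin and 0.353 to 0.912 CPM in the other 5; Lck, at 24 to 40 counts, and Cd28, at 20 to 36, made up most of it with oxaliplatin, where Cd3d was at 0 and Cd3e at 2 or fewer. With the same library left out, the 2 pan-leukocyte markers summed to 0.573 to 1.59 CPM with oxaliplatin and 0.133 to 0.564 CPM without. Coro1a, at 12 to 35 counts, made up nearly all of this sum with oxaliplatin, where Ptprc was at 2 counts or fewer. Myeloid markers summed to 1.67 to 2.07 CPM with oxaliplatin and 0.668 to 1.67 CPM without. The 4 fibroblast markers summed to 20.9 to 25.6 CPM with oxaliplatin and 9.95 to 17.4 CPM without, nearly all of it Pdgfra, while Lum was at 0 and Dcn at 1 count or fewer. Replicate 1 of IFN200 also stood apart, with 28 counts of Myh6 and 63 of Actc1, both heart muscle genes, against at most 4 and 2 elsewhere. Its 5 heart muscle markers summed to 6.21 CPM, against 0.834 to 1.27 CPM in the other 5 libraries without oxaliplatin and 3.02 to 5.94 CPM in the 6 with it, where Tnnt2 made up most of the sum. In these bulk samples, fewer cells of a type and less RNA per cell cannot be told apart.

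Of the 7 members, Slfn9, Slfn3 and Slfn2 passed the filter on low counts, and 4 did not. Slfn9 was the main Schlafen transcript of these cells, with 89.9% of all 34413 member counts, followed by Slfn3 with 5.31% and Slfn2 with 4.71%. Per kilobase of exon, which allows levels of different genes to be compared, the Slfn9 group means were 16.7 to 23.0 CPM per kb, those of Slfn2 2.51 to 5.02 and those of Slfn3 1.55 to 2.37. The order Slfn9, Slfn2, Slfn3 held in every group on this scale.

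Slfn9, a long Schlafen, was close to its control level with either agent alone and higher with both. In Ctrl it had 1839 and 2111 counts, or 102.3 and 107.0 CPM. IFN200 libraries were at 111.9 and 107.2 CPM, IFN2000 libraries at 96.0 and 102.8 CPM, and Oxali libraries at 107.0 and 110.3 CPM. These 8 libraries overlapped or lay close together. Combo200 libraries were at 121.1 and 120.6 CPM and Combo2000 libraries, with 3779 and 3123 counts, at 140.0 and 134.6 CPM. All 4 combination libraries were above all 8 others, and both Combo2000 libraries were above both Combo200 libraries. How many of all genes do so was not counted. By edgeR's quasi-likelihood test at an adjusted p under 0.05, 3.37% of the 13177 genes tested were called higher in Combo2000 against Oxali. In order, the group means were 99.4 CPM ± 4.80 in IFN2000, 104.6 ± 3.30 in Ctrl, 108.6 ± 2.37 in Oxali, 109.5 ± 3.30 in IFN200, 120.8 ± 0.350 in Combo200 and 137.3 ± 3.81 in Combo2000 (SD, n = 2). In this order each group up to IFN200 overlapped the next.

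Slfn3, an intermediate Schlafen known from T cells and the gut epithelium, separated the libraries by oxaliplatin. In Ctrl it had 94 and 116 counts, or 5.23 and 5.88 CPM. IFN200 libraries were at 5.34 and 5.26 CPM and IFN2000 libraries at 6.04 and 5.40 CPM. Oxali libraries were at 7.88 and 7.49 CPM, with 171 and 157 counts. Combo200 libraries were at 8.33 and 7.19 CPM and Combo2000 libraries at 8.56 and 7.59 CPM. Every library with oxaliplatin was above every library without it, and the 3 groups with oxaliplatin overlapped each other. How many of all genes separate this way was not counted. By edgeR's quasi-likelihood test at an adjusted p under 0.05, 34.8% of the 13177 genes tested were called higher in Oxali against Ctrl. From lowest to highest, the IFN200 mean was 5.30 CPM ± 0.0571, the Ctrl mean 5.55 ± 0.459, the IFN2000 mean 5.72 ± 0.451, the Oxali mean 7.68 ± 0.273, the Combo200 mean 7.76 ± 0.808 and the Combo2000 mean 8.07 ± 0.687 (SD, n = 2), and the step between IFN2000 and Oxali was the only gap between neighbouring groups.

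Slfn2, a short Schlafen that keeps T cells quiescent, was lowest in the cells without oxaliplatin and highest in Combo2000. Ctrl libraries had 82 and 101 counts, or 4.56 and 5.12 CPM. IFN200 libraries were at 4.38 and 3.98 CPM. IFN2000 libraries lay further apart, at 5.31 CPM in replicate 2 and 3.75 CPM in replicate 3, and replicate 2 is the library with the T cell markers, whose part in this value was not tested. Oxali libraries were at 6.54 and 5.77 CPM, Combo200 libraries at 6.80 and 7.81 CPM and Combo2000 libraries, with 216 and 202 counts, at 8.002 and 8.71 CPM. Again each library with oxaliplatin was above each without, and both Combo2000 libraries were above both Combo200 libraries. As for Slfn3, how many of all genes separate this way was not counted. In order, the means were 4.18 CPM ± 0.288 in IFN200, 4.53 ± 1.10 in IFN2000, 4.84 ± 0.393 in Ctrl, 6.16 ± 0.543 in Oxali, then 7.31 ± 0.709 in Combo200 and finally 8.35 ± 0.499 in Combo2000 (SD, n = 2), and the IFN2000 range covered all of the IFN200 and Ctrl ranges, which did not overlap each other. The summed T cell markers, replicate 2 of IFN2000 apart, were also higher in every library with oxaliplatin than in those without. So were the pan-leukocyte sum with the same exception (nearly all Coro1a), the fibroblast markers and, IFN200 replicate 1 apart, the heart muscle markers. The part of these in the Slfn2 and Slfn3 levels was not tested.

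**Figure D1:**
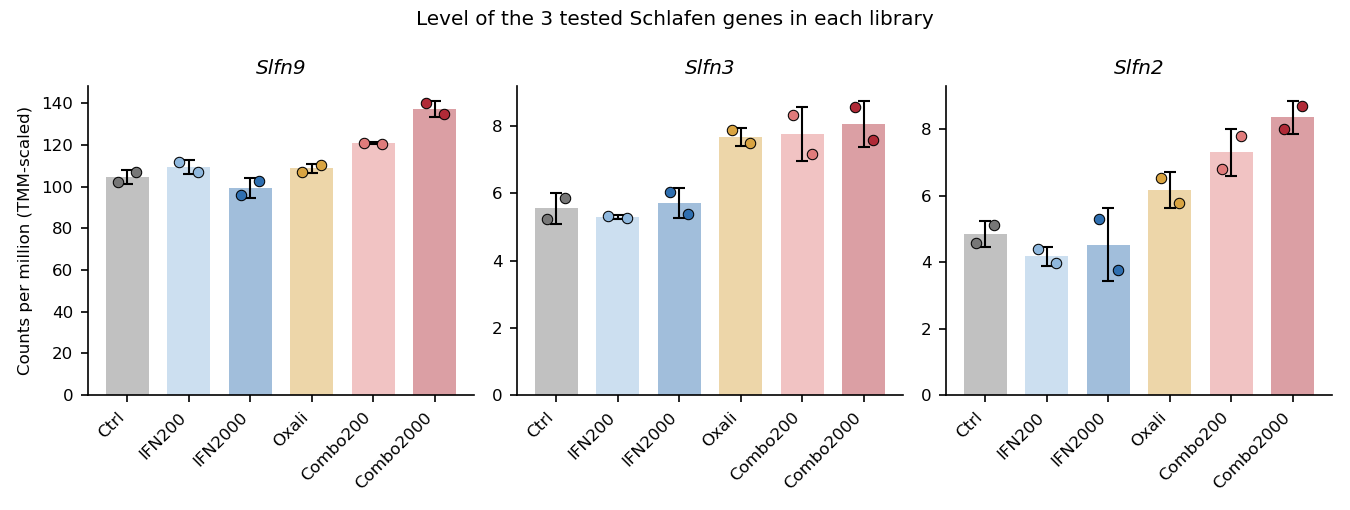
CPM of Slfn9, Slfn3 and Slfn2 by treatment group. Points are the 2 libraries of a group, bars their mean and error bars their SD. Slfn9 stands out in the 2 combination groups, while Slfn3 and Slfn2 are higher in the 3 groups with oxaliplatin. For Slfn2 the combination libraries also lie above both Oxali libraries, and differences between members were not tested.

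The other 4 members were at or near the detection limit. Slfn8, the near copy of Slfn9, was at 0 in all 4 libraries of Ctrl and IFN200. Its counts were 3 and 0 with 2000 pg of IFNγ alone, the 3 in the library with the T cell markers, and 4 and 1 with oxaliplatin alone. With both agents they were 2 and 5 at the lower dose and 11 and 7 at the higher dose. Its Combo2000 mean of 0.355 CPM ± 0.0748 (SD, n = 2) was at least 2.22-fold higher than the mean Ctrl floor of 3 counts per library, 0.159 CPM. Of the 50-base words of Slfn8 14.6% occur in another gene, and how many of its reads stem from Slfn9 was not tested. Slfn8 did not pass the filter on low counts, and without that filter edgeR's quasi-likelihood test gave an adjusted p of 0.000796 in Combo2000, 0.0432 in Combo200, 0.0819 in Oxali and 0.475 in IFN2000 against Ctrl. That test also gave 0.0264 in Combo200 against IFN200 and 0.0307 in Combo2000 against IFN2000, but 0.633 in Combo2000 against Oxali. The interaction at 2000 pg was not called, with an unadjusted edgeR p of 0.307. Without the filter, 4751 of 26916 genes were called higher in Combo2000 and 4676 in Combo200 against Ctrl. In Combo200 against IFN200 4819 were called higher, and in Combo2000 against IFN2000 5160. Slfn1, first found in resting thymocytes, had 1 count in IFN2000 replicate 2 and 1 in Combo200 replicate 3, the 2 libraries with the most T cell marker CPM. Slfn5 had 1 count in Oxali replicate 2, and Slfn4, known from myeloid cells, had none in any library. Among family genes outside the 7, Slfn14 had 3 counts, all in 1 IFN200 library, and Slfn5os, antisense to Slfn5, had none. The pseudogene Slfn10-ps had 0 to 4 counts in the 6 libraries without oxaliplatin and 5 to 11 in the 6 with it, and how many of these reads are shared with Slfn9 or Slfn8 was not tested. Slfnl1, a Schlafen-like gene on chromosome 4, had 2 counts in all.

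No tested member was called with IFNγ alone. In IFN200 against Ctrl none of the 3 tested members was called by edgeR's quasi-likelihood test at an adjusted p under 0.05, where 0.114% of the 13177 genes tested were called higher. In IFN2000 against Ctrl again none was called, beside 8.39% of all genes called higher. The log2 fold change of Slfn9 was 0.07 (SE 0.0453, adjusted p = 0.855) with 200 pg and -0.07 (SE 0.0456, adjusted p = 0.296) with 2000 pg, with 95% intervals from -0.03 to 0.16 and from -0.17 to 0.02. For Slfn2 the values were -0.21 (adjusted p = 0.876) and -0.09 (adjusted p = 0.757), and for Slfn3 -0.07 (adjusted p = 0.959) and 0.04 (adjusted p = 0.883). The intervals of Slfn2 are wide, from -0.57 to 0.14 and from -0.44 to 0.25, so a modest change in either direction was not detectable at this depth. Without IFN2000 replicate 2, the Slfn2 value at 2000 pg was -0.37. Without IFN200 replicate 1, the values at 200 pg were 0.03 for Slfn9, -0.29 for Slfn2 and -0.08 for Slfn3, none of them called.

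With oxaliplatin alone Slfn3 was the tested member that passed the threshold. It rose by 0.47 on the log2 scale (SE 0.128, adjusted p = 0.00334), or 1.38-fold. That is 1 of 3 tested members called higher, beside 34.8% of all genes tested. The Slfn2 value was 0.34 (SE 0.158, adjusted p = 0.0603), with a 95% interval from 0.01 to 0.68. For Slfn9 the value was 0.05 (SE 0.0456, adjusted p = 0.308) with an interval from -0.04 to 0.15. The Slfn2 call moved to the other side of the threshold with upper-quartile scaling (0.40, adjusted p = 0.0324), with only the groups compared (0.34, adjusted p = 0.0348) and without IFN2000 replicate 2 or 3 (0.34, adjusted p = 0.0349 and 0.0350). Slfn9 was called higher with upper-quartile scaling (0.11, adjusted p = 0.0432), which shifted the median of all genes from 0.02 to 0.07. The Slfn9 value turned to -0.10 (adjusted p = 0.0351) when a trend with exon length was removed, a correction that shifted that median from 0.02 to -0.11.

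Both agents together raised all 3 tested members. In Combo200 against Ctrl 3 of 3 were called higher, beside 35.6% of all genes. Slfn2 rose by 0.59 on the log2 scale (SE 0.149, adjusted p = 0.00155), Slfn3 by 0.47 (SE 0.125, adjusted p = 0.00234) and Slfn9 by 0.21 (SE 0.0449, adjusted p = 0.000412). The Slfn9 call was lost when the length trend was removed (0.04, adjusted p = 0.409, where the median of all genes was -0.12). In Combo2000 against Ctrl 3 of 3 were called higher, beside 35.7% of all genes. Slfn2 rose by 0.78 (SE 0.145, adjusted p = 8.5e-05), or 1.72-fold, Slfn3 by 0.54 (SE 0.123, adjusted p = 0.000669), or 1.45-fold, and Slfn9 by 0.39 (SE 0.0445, adjusted p = 1.7e-07), or 1.31-fold.

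Of the members, Slfn9 was called when IFNγ was added to oxaliplatin. In Combo200 against Oxali none of the 3 was called, beside 1.58% of all genes called higher. There Slfn9 was at 0.15 (SE 0.0443, adjusted p = 0.104; called, at adjusted p = 0.0356, with only the groups compared), Slfn2 at 0.25 (adjusted p = 0.543) and Slfn3 at 0.01 (adjusted p = 0.992). In Combo2000 against Oxali 1 of 3 was called higher, beside 3.37% of all genes. That member was Slfn9, which rose by 0.34 (SE 0.0439, adjusted p = 2.4e-05), or 1.26-fold, and was higher in 2 of 2 libraries. Slfn2 was at 0.44 (SE 0.134, adjusted p = 0.0805) and passed the threshold without the filter on low counts (0.44, adjusted p = 0.0143) or when only the groups compared were fitted (0.43, adjusted p = 0.0481), and without IFN2000 replicate 2 or 3 (0.43, adjusted p = 0.0326 and 0.0330). Slfn3 was at 0.08 (SE 0.112, adjusted p = 0.837), with an interval from -0.16 to 0.31. The differences between members were not tested.

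Adding oxaliplatin to IFNγ raised every tested member. In Combo200 against IFN200 3 of 3 were called higher, beside 36.5% of all genes, with log2 fold changes of 0.81 for Slfn2 (adjusted p = 6.6e-05), 0.55 for Slfn3 (adjusted p = 0.000503) and 0.14 for Slfn9 (adjusted p = 0.00765), the last of which turned to -0.01 (adjusted p = 0.803) when the length trend was removed. In Combo2000 against IFN2000 3 of 3 were called higher, beside 38.5% of all genes. Slfn2 rose by 0.87 (adjusted p = 1.44e-05), Slfn3 by 0.50 (adjusted p = 0.000795) and Slfn9 by 0.47 (adjusted p = 1.02e-08). Without IFN200 replicate 2 the Slfn9 call in Combo200 against IFN200 was lost (0.11, adjusted p = 0.0842), and without replicate 1 all 3 calls were kept, at 0.88 for Slfn2 (adjusted p = 0.000562), 0.56 for Slfn3 (adjusted p = 0.00434) and 0.17 for Slfn9 (adjusted p = 0.0107). These comparisons share their combination libraries with those above.

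Between the IFNγ doses Slfn9 was the tested member called, lower without oxaliplatin and higher with it. In IFN2000 against IFN200 no member was called higher, beside 11.3% of all genes, and Slfn9 was called lower, by -0.14 (SE 0.0448, adjusted p = 0.0303), beside 11.0% of all genes called lower. The libraries of IFN2000 had a trend with exon length that the other treated libraries did not share: Spearman's rho of the log2 ratio to Ctrl on exon length over 13024 genes was -0.304 and -0.163 there, against 0.0322 to 0.145 elsewhere, and Slfn9 has 5.965 kb of exon. With that trend removed Slfn9 was at -0.11 (adjusted p = 0.0591). Without IFN2000 replicate 2 it was at -0.09 (adjusted p = 0.309) and without IFN200 replicate 1 at -0.11 (adjusted p = 0.231). In Combo2000 against Combo200 Slfn9 was the 1 member called higher, by 0.18 (SE 0.0432, adjusted p = 0.0338), beside 1.21% of all genes. Leaving out any of the 4 libraries compared lost that call, with adjusted p from 0.0644 (without Combo2000 replicate 3) to 0.336 (without Combo200 replicate 3), 0.226 without Combo200 replicate 2 and 0.318 without Combo2000 replicate 2.

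The interaction asks whether IFNγ changed a gene more in the presence of oxaliplatin than in its absence, as the log2 change from Oxali to the combination minus that from Ctrl to IFNγ alone. At 200 pg no member was called, beside 0.562% of all genes called higher. The values were 0.46 for Slfn2 (SE 0.218, adjusted p = 0.497), 0.09 for Slfn9 (SE 0.0634, adjusted p = 0.698) and 0.08 for Slfn3 (SE 0.177, adjusted p = 0.927). At 2000 pg Slfn9 was called, with an interaction of 0.41 (SE 0.0634, adjusted p = 0.000704) and a 95% interval from 0.28 to 0.55, beside 2.12% of all genes. Its value lay between 0.36 and 0.44 when any single library was left out, with the call kept each time. Slfn2 had a value of 0.53 (SE 0.213, adjusted p = 0.205) with an interval from 0.08 to 0.98, and Slfn3 one of 0.03 (SE 0.175, adjusted p = 0.954) with an interval from -0.33 to 0.40.

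**Figure D2:**
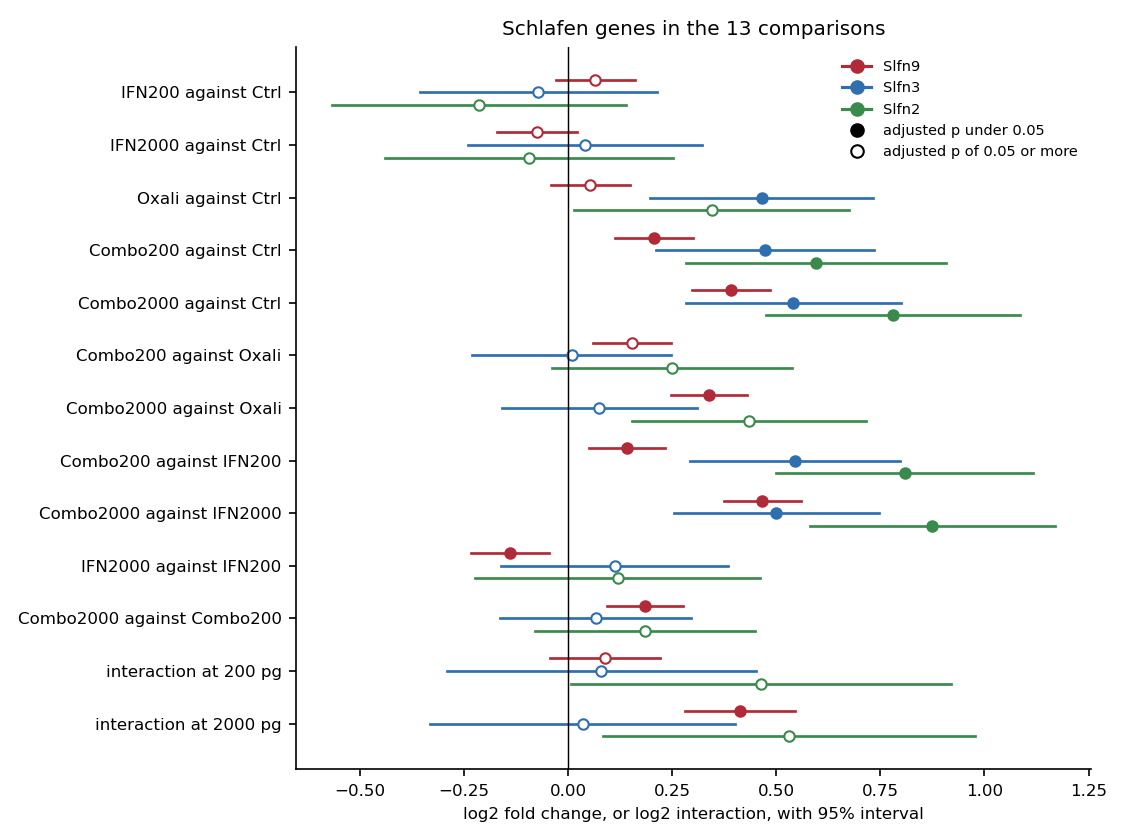
Log2 fold changes of Slfn9, Slfn3 and Slfn2 in 11 comparisons and the log2 interaction at both IFNγ doses, with 95% intervals. Filled points passed an adjusted p of 0.05; Slfn9 alone is filled in Combo2000 against Oxali and in the interaction at 2000 pg, and its small values in Oxali against Ctrl and Combo200 against IFN200 changed sign when the length trend was removed.

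On the linear scale the combination can be set against the sum of the single effects. For Slfn9 the changes with Oxali and with IFN2000 added to the Ctrl level give 103.4 CPM, and the Combo2000 libraries were 35.4% and 30.2% above that. At 200 pg the sum was 113.5 CPM and the Combo200 libraries were 6.66% and 6.22% above it. For Slfn2 the excess was 36.8% and 48.9% at 2000 pg and 23.8% and 42.0% at 200 pg. The Slfn3 libraries fell on both sides of the sum, from 3.36% below in Combo2000 replicate 3 to 12.1% above in Combo200 replicate 2. These are values per library, with no test.

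The genes around the cluster were measured too. Of the 10 nearest protein-coding genes outside the cluster, 5 on each side and Slfn14 among them, 5 had enough counts to test, among them Rffl, Rad51d, Nle1 and Ap2b1. In Combo2000 against Ctrl none of these 5 was called higher and 3 were called lower, beside 35.7% of all genes called higher and 33.5% called lower. Nle1, which works in ribosome assembly, went from 54.8 CPM ± 1.53 to 34.0 ± 0.112 (SD, n = 2), a change of -0.69 (adjusted p = 1.25e-08). Rad51d, a recombination factor, went from 35.3 CPM ± 0.262 to 26.1 ± 1.46, a change of -0.44 (adjusted p = 2.34e-06). Oxaliplatin alone gave the same count, 3 called lower, beside 32.8% of all genes, with -0.66 for Nle1 and -0.40 for Rad51d. In the interaction at 2000 pg none of the 5 was called, beside 2.12% of all genes called higher and 0.600% called lower.

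**Figure D3:**
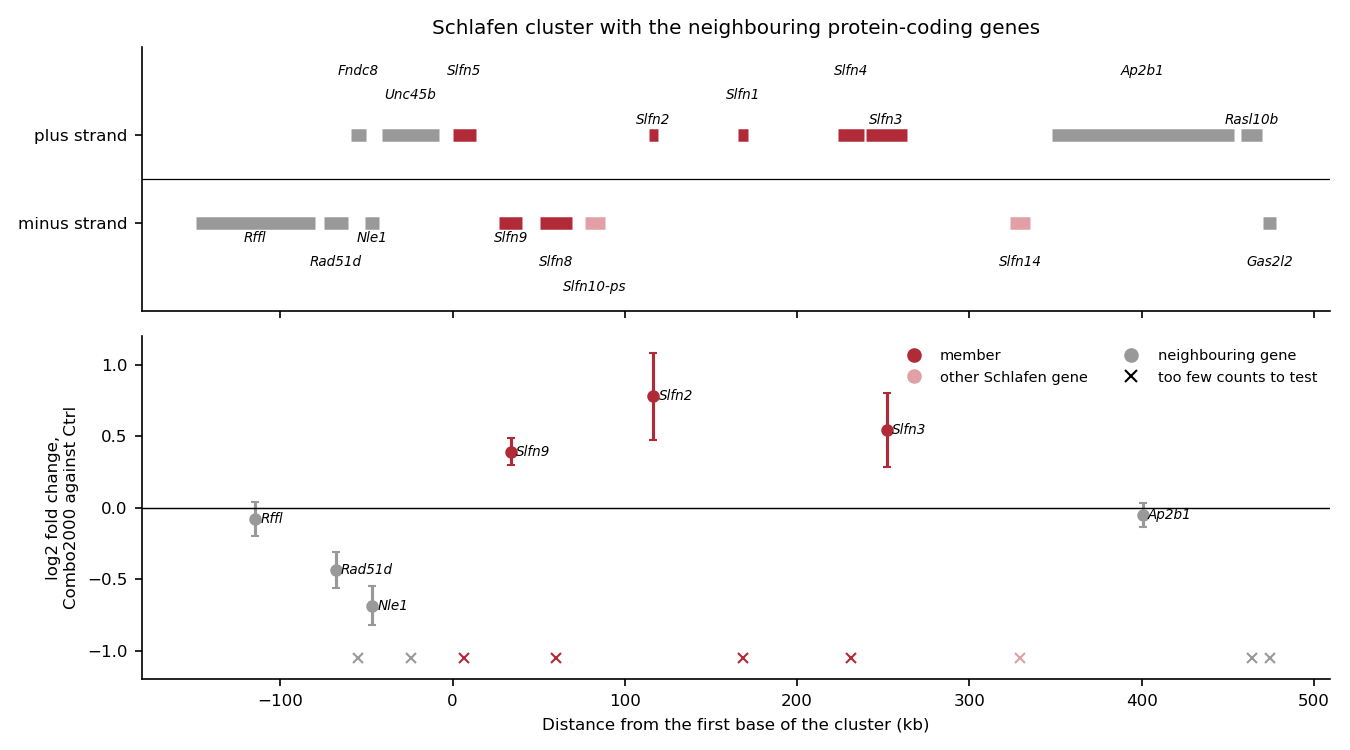
The upper panel draws the Schlafen genes and 8 of the nearest protein-coding genes by strand, in kb from the first base of the cluster, and the lower panel the log2 fold change of the tested genes among them in Combo2000 against Ctrl with its 95% interval. Crosses mark genes with too few counts, and Slfn10-ps, with 1 count in Ctrl, is left out of the lower panel; the 3 tested members are above 0 and the neighbours Nle1 and Rad51d below.

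The members were set beside 3 lists of other genes. The interferon signalling list holds 20 receptors, kinases, transcription factors and inhibitors, all tested. Of these, 0 were called in IFN200 against Ctrl, 9 higher and 1 lower in IFN2000, 14 higher and 3 lower in Oxali, and 16 higher and 3 lower in Combo2000, where their median was 0.97 against 0.02 over all genes. Of all genes, 0.114% were called higher in IFN200. In IFN2000 8.39% were called higher and 8.47% lower, in Oxali 34.8% and 32.8%, and in Combo2000 35.7% and 33.5%. Usp18, an inhibitor of interferon receptor signalling, was at 0.261 CPM in Ctrl, 2.91 in Oxali and 7.48 in Combo2000. Irf8, a regulatory factor, was at 0.562 CPM in Ctrl and 7.71 in Combo2000. The interaction at 2000 pg was called higher for 7 of the 20, beside 2.12% of all genes, among them Irf8 (2.25, adjusted p = 0.0287).

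Of 23 antiviral interferon-stimulated genes 17 were tested. None was called in IFN200 against Ctrl, beside 0.114% of all genes called higher. In IFN2000 6 were called higher and 2 lower, beside 8.39% and 8.47% of all genes. Oxali had 9 higher and 2 lower, beside 34.8% and 32.8%, and Combo2000 16 higher and 0 lower, beside 35.7% and 33.5%. The median in Combo2000 was 2.11, or 2.00 with Rsad2, which had no counts in Ctrl, set to its bound. Oasl2, of the oligoadenylate synthetase family, was at 0.420 CPM ± 0.122 in Ctrl (SD, n = 2). IFN2000 had 2.81 CPM ± 0.814 of it, Oxali 2.76 ± 0.196 and Combo2000 26.7 ± 1.21. Oas2 was at 0.0507 CPM in Ctrl and 2.07 in Combo2000, and Rsad2 was at 0.638 CPM in Combo2000, at least 4.002-fold higher than the Ctrl floor. In Combo2000 against Oxali 15 of the 17 were called higher, beside 3.37% of all genes, and in the interaction at 2000 pg 9 were, beside 2.12%.

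Human SLFN11 acts at stalled replication forks, and 21 genes of that response, all tested, were called 4 higher and 9 lower in Oxali against Ctrl and 4 higher and 10 lower in Combo2000. Over all genes 34.8% were called higher and 32.8% lower in the former comparison and 35.7% and 33.5% in the latter. The list's median in Combo2000 was -0.10 against 0.02 over all genes. The largest changes among those called were in Dhx9, an RNA helicase, from 614.7 CPM ± 0.00101 to 401.0 ± 4.64, Hus1, of the checkpoint clamp, from 59.2 ± 0.673 to 40.3 ± 1.04, and Tipin, a fork protection factor, from 107.8 ± 0.247 to 78.5 ± 1.01 (SD, n = 2). In Combo2000 against Oxali none of the 21 was called in either direction, beside 3.37% of all genes called higher and 0.987% called lower.

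**Figure D4:**
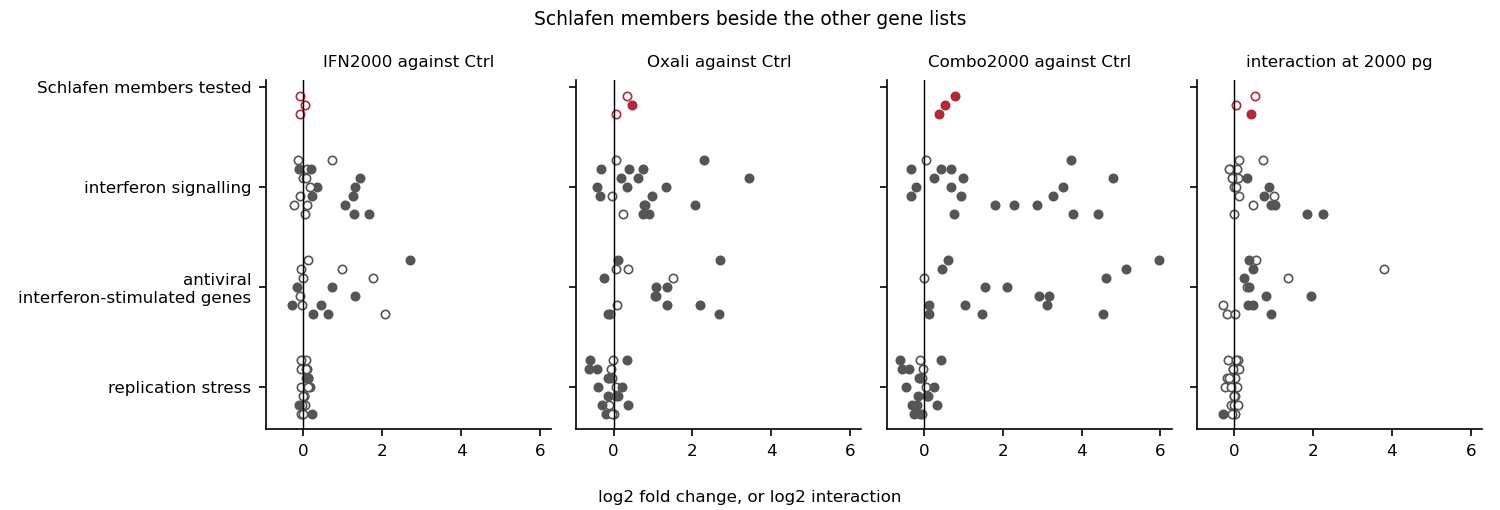
Log2 fold changes in 3 comparisons and the log2 interaction at 2000 pg for the 3 tested Schlafen members and the genes of the 3 lists, with filled points for an adjusted p under 0.05. Rsad2, with no counts in Ctrl, is left out; the members lie between 0.39 and 0.78 in Combo2000 against Ctrl, where the list medians were 0.97 for interferon signalling and -0.10 for replication stress.

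The genes whose log2 CPM followed each member most closely over the 12 libraries differed between members. For Slfn9 they were Eif2ak2 (r = 0.977), the double-stranded RNA-activated kinase PKR, Xdh (r = 0.947), xanthine dehydrogenase, and Helz2 (r = 0.944), a helicase coactivator. Eif2ak2 went from 57.5 CPM ± 2.47 in Ctrl to 59.5 ± 0.985 in Oxali, 55.5 ± 4.37 in IFN2000 and 79.2 ± 0.434 in Combo2000 (SD, n = 2). For Slfn3 they were Sgo1 (r = 0.986), a protector of centromere cohesion, BC052040 (r = 0.981) and Apobr (r = 0.981), an apolipoprotein B receptor, and for BC052040 the means were 19.8 CPM in Ctrl and 29.3, 30.2 and 29.9 CPM in Oxali, Combo200 and Combo2000. For Slfn2 they included Tlr6 (r = 0.968), a receptor for bacterial lipopeptides, and Lancl2 (r = 0.961). Among the members r was 0.888 for Slfn2 and Slfn3, 0.774 for Slfn2 and Slfn9 and 0.694 for Slfn3 and Slfn9. These are Pearson correlations over libraries that share 6 treatments, so they follow the group means and are given as a description.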

How the data were processed

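RNA of 12 Myc-CaP libraries (polyA, TruSeq Stranded mRNA kit) was measured. Per the study's methods, the authors aligned reads with STAR 2.7.3a to GRCm38, annotated by GENCODE vM12, and counted them per gene with featureCounts; the labels' processing notes list RSEM 1.3.0 too, and the strand setting is not given in the sources used here. The deposited values are whole, unnormalised counts per gene. Groups were taken from the sample titles. Counts were filtered (filterByExpr, minimum count 10, minimum total 15; 13177 of 55216 genes kept), scaled by TMM and tested with edgeR 4.0.16 (quasi-likelihood, R 4.3.3) in 1 model with a mean for each group. P-values were adjusted by Benjamini-Hochberg over all genes tested, with a threshold of 0.05; exact permutation of 2 against 2 libraries cannot go below 0.333. CPM were taken on the TMM-scaled library sizes. Exon lengths, loci and coding sequences came from GENCODE M21 (GRCm38) and promoters from RefSeq. A planned comparison of proteins was replaced by coding bases. The length alternative removed a loess trend of log2 ratio on exon length per library. Likeness used log2 CPM with a prior count of 2. Genes were named by a rule: all members and other Schlafen genes, the 3 genes of each list (2 for neighbours) with the largest change called in Combo2000 against Ctrl, and the 3 genes most like each tested member; some of the genes this names are not reported here. The members and lists were chosen with earlier results of these data known. The test was tried on simulated counts. DESeq2 1.42.0 was an alternative. Replicates differed beyond counting noise in every group, so none was a copy. Same-numbered libraries of different groups did not deviate together (r from -0.0456 to 0.0170), so the numbers were not taken as pairs. Only groups holding the same numbers were compared, 1 and 2 in Ctrl, IFN200 and Oxali, and 2 and 3 in IFN2000, Combo200 and Combo2000. A difference between these sets that goes with the number was not tested.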

Additional observations from a re-analysis of the deposited data

Results flagged for a closer look

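The log2 interaction of Slfn9 at 2000 pg of IFNγ, 0.41 (SE 0.0634, adjusted p = 0.000704, edgeR quasi-likelihood test), stands out because the effect of IFNγ differed between cells with and without oxaliplatin by a test of that difference. IFN2000 against Ctrl was at -0.07 and Combo2000 against Oxali at 0.34. Both IFN2000 libraries, at 96.0 and 102.8 CPM, were below the Ctrl mean of 104.6 CPM, and both Combo2000 libraries, at 140.0 and 134.6 CPM, were above the Oxali mean of 108.6 CPM. With the exon length trend removed the interaction was 0.38, and without IFN2000 replicate 2, the library with T cell markers, it was 0.36.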

How the results depend on the processing

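Of 858 values of single members under the alternatives, 809 kept their direction and their side of the threshold, 17 lost the threshold, 10 newly passed it and 22 changed sign. The 3 calls in Combo2000 against Ctrl, those in Combo2000 against IFN2000, Slfn9 in Combo2000 against Oxali and the Slfn9 interaction at 2000 pg held under all of them. In Oxali against Ctrl 3 members were called higher with upper-quartile scaling and 2 with only the groups compared, against 1, and 1 was called lower with the length correction, with or without the replicate block. Among the 13177 genes tested, 5036 were called higher with upper-quartile scaling and 4639 with only the groups compared, against 4590. With the length correction 9154 were called, 3618 of them higher, or 9061 and 3573 with the block, against 8911 and 4590. In Combo200 against Oxali 1 was called higher with only the groups compared, against 0, beside 278 of all genes, against 208. In Combo2000 against Oxali 2 were, with that fit (beside 413 genes) and with no filter (542 of 26916), against 1 and 444 genes. The length correction turned Slfn9 to -0.104 in Oxali against Ctrl and to -0.0121 in Combo200 against IFN200, or to -0.104 and -0.0270 together with the block. Because it moved the median of all genes to -0.111 in Oxali against Ctrl and -0.112 in Combo200 against IFN200, Slfn9 was 0.00712 and 0.100 above that median, against 0.0367 and 0.121 without the correction. Slfn3 in Combo200 against Oxali turned to -0.00767 with upper-quartile scaling and -0.0179 with the length correction.

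With the replicate block, Slfn9 in Combo200 against IFN200 went to 0.129 (adjusted p = 0.0516), and the Slfn9 calls of both dose steps were lost (0 members called, against 1 each). Of 13177 genes, 1588 were then called in IFN2000 against IFN200, 756 of them higher, against 2943 and 1493. In Combo2000 against Combo200 150 were, 137 of them higher, against 181 and 159. The numbers do not pair the samples, so this is given only for completeness; every other member call was kept with the block. The lower call of Slfn9 in IFN2000 against IFN200 was also lost (0 called) with the length correction, with only the groups compared and with DESeq2, and its call in Combo2000 against Combo200 with DESeq2 (0 called). Over all genes, the length correction called 2562 in IFN2000 against IFN200 (1577 higher) and the groups compared alone 1917 (885 higher). DESeq2 called 1877 of 9695 there (1021 higher) and 107 of 14392 in Combo2000 against Combo200 (98 higher). Upper-quartile scaling, RLE scaling, both filters and summed paralogs kept the 2 dose-step calls. DESeq2 called 5 interferon signalling genes higher and 0 lower in IFN2000 against Ctrl, 1 antiviral gene lower in Oxali against Ctrl, and 0 replication stress genes lower both in the interaction at 2000 pg and in IFN2000 against Ctrl.

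With 1 library left out at a time, the remaining library of a group was assumed to vary like the other groups. In these fits Slfn2 ranged from 0.251 to 0.433 in Oxali against Ctrl and from 0.349 to 0.529 in Combo2000 against Oxali. Slfn9 ranged from 0.156 to 0.212 in Combo2000 against Combo200 and from -0.174 to -0.0905 in IFN2000 against IFN200. Each of these values moved across the threshold in some of the fits, and the number of all genes called changed too. Values that changed sign ranged, for Slfn3, from -0.152 to 0.0189 in IFN200 and -0.0410 to 0.135 in IFN2000 against Ctrl, -0.0965 to 0.116 in Combo200 and -0.0190 to 0.155 in Combo2000 against Oxali, -0.0409 to 0.172 in Combo2000 against Combo200, and -0.0255 to 0.187 and -0.0627 to 0.114 in the interactions at 200 and 2000 pg. For Slfn2 they ranged from -0.369 to 0.148 in IFN2000 against Ctrl and -0.156 to 0.360 in IFN2000 against IFN200. Slfn9 in Combo200 against IFN200 lost its call without IFN200 replicate 2 (0.111). The causes of these changes were not tested. With 82 to 231 counts per library, Slfn2 and Slfn3 are less precise than Slfn9 with 1839 to 3779.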
